A study of Mus musculus with 24 samples.

Results

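The sarcomere genes described here are 35 genes that encode the contractile filaments, the Z-disc, the machinery that couples membrane excitation to calcium release, and a pair of energy enzymes of skeletal muscle. The genes were listed by name, and a listed gene was described where 1 of its probes was detected on at least 2 arrays of a set (detection p under 0.01 against the negative control beads). Of the 35 genes, 33 had a probe that the platform annotation names, 32 were tested among 8660 genes on the 8 arrays of Rag1-/- mice, and 31 were tested among 8226 genes on the 16 arrays of WT and PHIL mice. Neb (nebulin) and Cacna1s (the voltage sensor of the transverse tubule) had no named probe here, Myom2 was detected on no array, and Lmod2 was detected on 0 of the 16 WT and PHIL arrays.

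Whole diaphragms of 24 mice were profiled on Illumina MouseRef-8 v2.0 arrays, with 1 array per mouse, to follow muscle gene expression after newborn larvae (NBL) of the parasitic nematode Trichinella spiralis arrive. Mice were naive (2 per strain) or had received 25000 NBL by retro-orbital injection 2 or 7 days earlier (2dpi and 7dpi, 3 mice per strain and time). The strains were WT C57BL/6 mice, Rag1-/- mice that lack T and B cells, and PHIL mice that lack eosinophils, and all were on a C57BL/6 background. Rag1-/- and PHIL mice were bred by the study and WT mice were bought from a supplier, so that strain and source cannot be told apart. In its analysis the paper labels the Rag1-/- arrays and the WT and PHIL arrays as separate experiments. The naive mice of a strain were the control of both of its time points, so those comparisons share samples, and the ages of the mice were not given in the sources used here.

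A level is the log2 of the background-corrected, quantile-normalised bead signal of 1 probe per gene, and levels are comparable between mice within the Rag1-/- arrays and within the WT and PHIL arrays, never between probes. A change is a difference of mean levels on the log2 scale, given with its standard error (SE), and p-values are from limma, adjusted by the Benjamini-Hochberg method over all genes tested. A gene was called where the adjusted p was at most 0.05 and the change was at least 0.59 in size (1.51-fold). For 6 members (Actn3, Ampd1, Ldb3, Myot, Sgca and Synm) the probe tested on the WT and PHIL arrays was not the one tested on the Rag1-/- arrays.

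In skeletal muscle, thin filaments of actin, tropomyosin and troponin slide along thick filaments of myosin, the Z-disc anchors the thin filaments of neighbouring sarcomeres, and titin spans from the Z-disc to the M-band. An action potential in the transverse tubule opens the ryanodine receptor of the sarcoplasmic reticulum, calcium binds troponin, and a calcium pump returns it to the store, where calsequestrin holds it. Larvae of T. spiralis invade single fibres and remain inside them while the fibre is remodelled into a nurse cell, a host cell that no longer contracts.

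The promoters of the members are shown because promoters of muscle genes are known for a few short motifs. The members were listed by name as muscle genes, and whether a motif went with a change was not tested. Of the 35 members, 24 had a promoter in the RefSeq table (mouse build GRCm38.p6), and the 250 bases before the annotated start were searched. The E-box CAGCTG, a motif read by myogenic factors such as MyoD, was found in 10 of the 24 windows (41.7%) and in 12.8% of 27025 promoters of the same length. The MEF2 site was found in 4 windows (Casq2, Myoz2, Pvalb and Ttn, 16.7%, against 3.01% of all promoters), and the CArG box of serum response factor in 3 windows (Acta1, Ldb3 and Myom1, 12.5% against 1.4%). The MCAT element CATTCC was found in 5 windows (20.8% against 12.6%), and TATAAA on the strand of the gene in 2 (8.33% against 8.12%). All but TATAAA were searched on both strands, and matches of different motifs could overlap. A match is a description of the letters and not evidence of binding.

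The windows of both tropomyosin genes, both calsequestrin genes, Pdlim3 and Ryr1 follow, since the results turn on these members. Letters run 5′ to 3′ on the strand of the gene and end at the base before the annotated start, and capitals mark the motif matches.
Tpm1, chr9:67049214-67049463, minus strand: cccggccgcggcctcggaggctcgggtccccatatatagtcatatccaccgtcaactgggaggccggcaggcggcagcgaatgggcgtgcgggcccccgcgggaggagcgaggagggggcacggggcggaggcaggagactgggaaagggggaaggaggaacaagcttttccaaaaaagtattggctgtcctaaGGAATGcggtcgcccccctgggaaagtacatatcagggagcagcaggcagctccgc
Tpm2, chr4:43523555-43523804, minus strand: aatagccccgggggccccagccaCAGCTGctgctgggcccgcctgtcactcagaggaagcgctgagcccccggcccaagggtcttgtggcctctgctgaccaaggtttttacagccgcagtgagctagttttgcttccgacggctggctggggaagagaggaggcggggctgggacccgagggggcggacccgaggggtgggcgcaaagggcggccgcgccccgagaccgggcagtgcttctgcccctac
Casq1, chr1:172219896-172220145, minus strand: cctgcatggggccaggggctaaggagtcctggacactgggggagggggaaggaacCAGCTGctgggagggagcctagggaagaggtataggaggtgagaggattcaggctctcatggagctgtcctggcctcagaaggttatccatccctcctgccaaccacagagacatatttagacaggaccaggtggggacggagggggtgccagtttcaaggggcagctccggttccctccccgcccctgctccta
Casq2, chr3:102086165-102086414, plus strand: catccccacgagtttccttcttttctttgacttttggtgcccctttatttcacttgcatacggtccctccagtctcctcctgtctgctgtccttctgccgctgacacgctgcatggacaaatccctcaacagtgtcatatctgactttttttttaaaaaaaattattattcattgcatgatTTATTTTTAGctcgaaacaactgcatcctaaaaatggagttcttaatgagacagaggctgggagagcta
Pdlim3, chr8:45885237-45885486, plus strand: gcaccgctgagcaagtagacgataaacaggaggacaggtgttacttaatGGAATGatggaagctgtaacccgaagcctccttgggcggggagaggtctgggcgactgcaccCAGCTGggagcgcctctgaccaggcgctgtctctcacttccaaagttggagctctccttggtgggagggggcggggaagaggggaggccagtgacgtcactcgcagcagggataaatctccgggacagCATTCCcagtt
Ryr1, chr7:29125152-29125401, minus strand: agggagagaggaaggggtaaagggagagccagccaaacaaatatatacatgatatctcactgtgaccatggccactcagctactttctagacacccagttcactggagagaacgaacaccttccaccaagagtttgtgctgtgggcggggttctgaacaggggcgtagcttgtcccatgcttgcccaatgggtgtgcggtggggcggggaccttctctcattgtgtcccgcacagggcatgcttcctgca
The capitals are an MCAT element in Tpm1 (bases -56 to -51, counted from the annotated start), an E-box in Tpm2 (bases -227 to -222), an E-box in Casq1 (bases -195 to -190) and a MEF2 site in Casq2 (bases -69 to -60). The Pdlim3 window held an E-box (bases -139 to -134) and a pair of MCAT elements (bases -201 to -196 and -11 to -6), and the Ryr1 window held none of the 5 motifs.

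Signal ranges set limits on the values that follow. Median raw signal lay between 295.1 and 333.4 on the Rag1-/- arrays and between 106.3 and 131.9 on the WT and PHIL arrays, with 10340 to 11740 and 8847 to 10627 probes detected. The 8 adult muscle genes that were probed and are not members (among them Myh1, Myh4 and Mb) all passed the detection filter in both sets, as did muscle genes among the members. The deleted gene Rag1 was detected on 0 of 8 Rag1-/- arrays and on 0 of 8 WT arrays, and so did not check the genotype, while 0 of 9 probed T and B cell markers passed the detection filter on the Rag1-/- arrays and 5 did on the WT and PHIL arrays. Of 5 probed eosinophil markers 0 passed in either set, so that the absence of eosinophils in PHIL mice could not be checked. The Y-linked gene Eif2s3y was detected on all Rag1-/- arrays, on 1 of 2, 1 of 3 and 2 of 3 WT arrays (naive, 2dpi and 7dpi), and on 0 of 2, 0 of 3 and 2 of 3 PHIL arrays. The mix of male and female mice was therefore uneven between the strains, and between the groups within WT and within PHIL mice.

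At 7dpi the sarcomere genes were mostly lower than in naive muscle in Rag1-/- mice, and a smaller number were lower in WT and PHIL mice. In Rag1-/- mice 17 of 32 members fell and 1 rose at 7dpi (53.1% lower, beside 14.9% of all genes lower and 17.6% higher). In WT mice 6 of 31 fell and 1 rose (11.8% and 16.3% of all genes), and in PHIL mice 7 of 31 fell and 0 rose (11.6% and 14.9%). The 6 WT falls include Ldb3, whose tested probe was detected on 0 of 2 naive and 1 of 3 7dpi WT arrays. Ampd1, Jph1, Ryr1 and Synm fell at 7dpi in each of the 3 strains. The WT and PHIL falls of Jph1 were near 0 under median scaling (-0.08 and -0.02), those of Ryr1 were lost with its probe of highest mean level (-0.52 and -0.12), and those of Synm were lost with that probe in WT mice (-0.57) and under median scaling in PHIL mice (-0.40). The median change of the members tested was -0.76 in Rag1-/-, -0.39 in WT and -0.32 in PHIL mice, beside -0.09, -0.06 and -0.07 over all genes. All 7dpi arrays lay below both naive arrays for 25 of 32 members in Rag1-/- mice (37% of all genes), 22 of 31 in WT mice (35.6%) and 16 of 31 in PHIL mice (36%), and above them for 5, 1 and 1 (30.6%, 29.2% and 28.8% of all genes). In Rag1-/- mice 4 of those 5 (Acta1, Atp2a1, Pvalb and Tnnc2) and 2 of the 25 read at the top of the scanner scale, where no change is given, which leaves 1 above (Tpm1) and 23 below of 25 measurable members.

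At 2dpi falls were called in WT and PHIL mice and not in Rag1-/- mice. In Rag1-/- mice 0 of 32 members fell by limma and 1 rose (3.05% and 6.8% of all genes). At an unadjusted p under 0.05 by limma 4 members were lower. In either direction 5 were at that p (15.6%, beside 24% of all genes). In WT mice 6 of 31 members fell and 0 rose (10.3% and 13.1%), and in PHIL mice 7 of 31 fell and 0 rose (7.94% and 10.6%). Actn2, Ampd1, Casq1, Tcap and Tpm2 fell at 2dpi in both WT and PHIL mice. The remaining WT fall was of Ldb3, whose tested probe was detected on 0 of 2 naive and 0 of 3 2dpi WT arrays. Both falls of Tpm2 were lost with its probe of highest mean level (-0.05 and -0.08), and both falls of Actn2 and the PHIL fall of Casq1 under median scaling. All 2dpi arrays lay below both naive arrays for 7, 17 and 17 members in Rag1-/-, WT and PHIL mice (23%, 33.7% and 33% of all genes) and above them for 5, 4 and 5 (19.1%, 27.9% and 25.7%), of which 2 in Rag1-/- mice (Acta1 and Tnnc2) read at the top of the scanner scale. The difference between the Rag1-/- and WT responses was tested on its own, and 0 members passed, as given after the gene groups.

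Single arrays moved several of these counts. Without naive replicate 1 or 2 of the Rag1-/- mice, 9 and 6 members fell at 7dpi, and without 7dpi replicate 1 or 2, 9 and 10 did. At 2dpi 1 member fell without Rag1-/- naive replicate 1 and 2 without 2dpi replicate 1, and 0 rose without naive replicate 1 or 2 or 2dpi replicate 1 or 3. In WT mice 1 member rose at 2dpi without 2dpi replicate 3. In WT mice 3 fell at 7dpi without naive replicate 2. Without PHIL 7dpi replicate 2, which was the highest of its 3 arrays for 24 of 31 members and the only one of them with no Eif2s3y signal, 13 members fell at 7dpi. With detection of Eif2s3y as a term of the fit, the falls at 7dpi were 6 in WT mice, all called before, and 6 in PHIL mice, where Jph1 was no longer called (change -0.54, adjusted p = 0.0648).

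**Figure D1:**
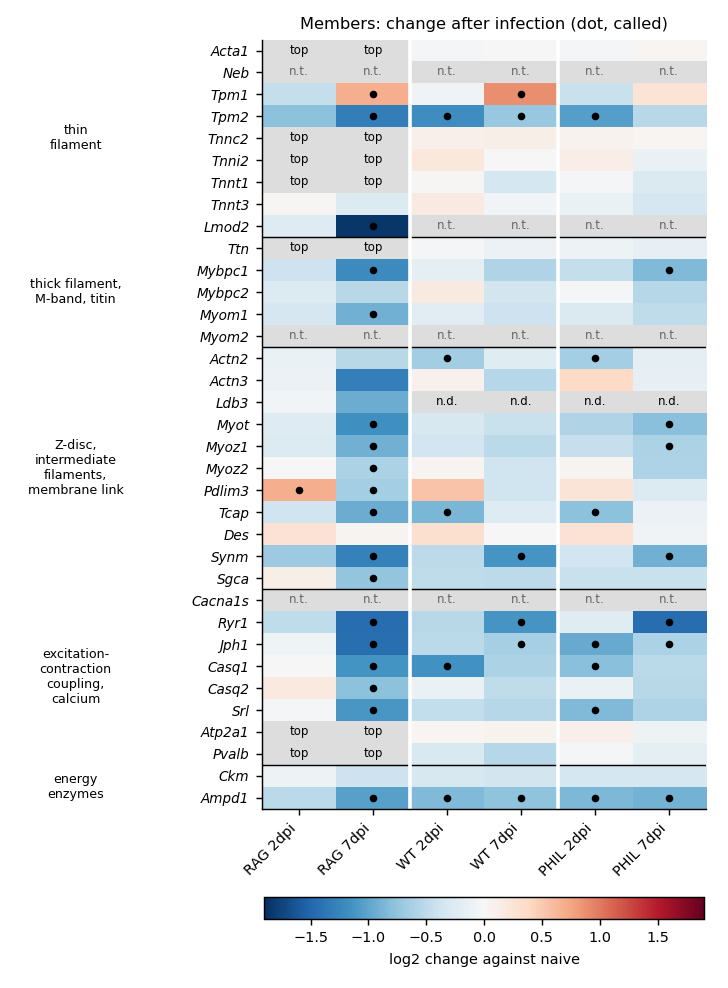
Change of each of the 35 members against naive mice of the same strain (columns, strain and time) on the log2 scale, blue for lower and red for higher, with a dot where the change was called (adjusted p at most 0.05 and at least 0.59 in size). Grey cells were not tested (n.t.), at the top of the scale on both naive Rag1-/- arrays (top) or not detected on any naive or 2dpi array of the strain (n.d.); the Rag1-/- 7dpi column holds 17 falls and 1 rise.

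Probes crowded at the top of the scanner scale, which limits the Rag1-/- values of the most strongly expressed members. The highest probe on each Rag1-/- array read between 70347.9 and 71441, and 42 to 66 probes per array lay within 10% of it, against 1 to 5 probes on the WT and PHIL arrays. The files carry no flag for saturation. Acta1 (skeletal actin), Tnnc2 and Tnni2 (fast troponin C and I), Tnnt1 (slow troponin T), Ttn (titin), Atp2a1 (the calcium pump of fast fibres) and Pvalb (parvalbumin, a calcium buffer) were within 10% of the highest probe on both naive Rag1-/- arrays, and no change is given for them in that strain. Of the other 25 members, 17 fell, 1 rose and 7 did not pass at 7dpi in Rag1-/- mice, with a median change of -0.94. That rule was set after the values were seen.

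Brightness of the probe also went with the size of the change. Where the probe read at least 10% of the highest probe on the naive arrays but was not at the top, 7 of 12 Rag1-/- members fell at 7dpi with a median change of -0.62, and among 13 dimmer members 10 fell and 1 rose with a median of -1.17. In WT mice 1 of 15 bright members fell (median -0.23), and among 16 dim members 5 fell and 1 rose (median -0.54). In PHIL mice 1 of 14 bright members fell (median -0.16) and 6 of 17 dim ones (median -0.53). The split was set after the values were seen, and the part of probe brightness in these changes was not tested.

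**Figure D2:**
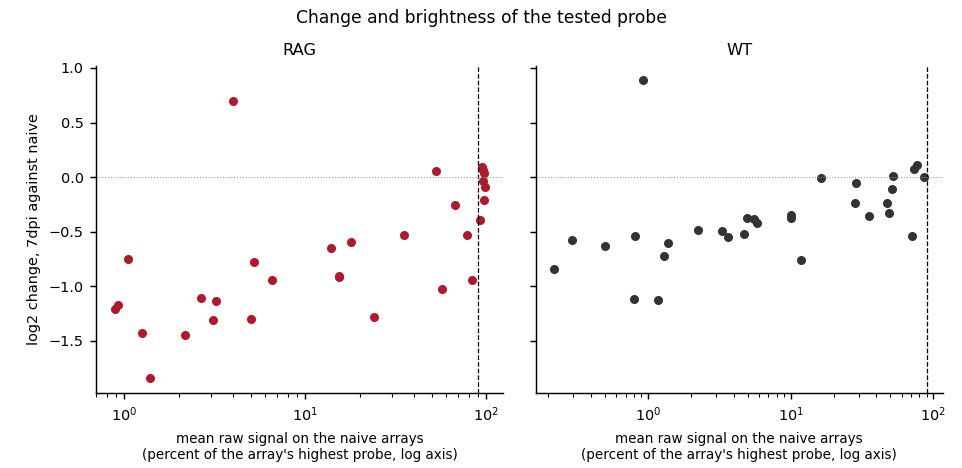
Change at 7dpi against naive on the log2 scale (vertical axis) plotted against the mean raw signal of the tested probe on the naive arrays, as a percent of the highest probe of the array on a log axis, with 1 point per member in Rag1-/- mice (left) and WT mice (right). The broken line marks 90% of the highest probe; the 7 Rag1-/- members with both naive arrays past it lie between -0.21 and 0.09, Ckm, with 1 of 2 naive arrays past it, lies at -0.39, and the leftmost WT point is Ldb3, whose probe was not detected on the naive WT arrays.

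Of the thin filament genes 2 of 8 fell (Lmod2 and Tpm2) and 1 rose (Tpm1) in Rag1-/- mice at 7dpi, 1 of 7 fell (Tpm2) and 1 rose (Tpm1) in WT mice, and 0 of 7 were called in PHIL mice, where Tnnt1, Tnnt3 and Tpm2 were lower at an unadjusted p under 0.05 by limma. The 8 include Acta1, Tnnc2, Tnni2 and Tnnt1, which read at the top of the scale and have no Rag1-/- change given. Of all genes 14.9%, 11.8% and 11.6% fell at 7dpi in Rag1-/-, WT and PHIL mice, and 17.6%, 16.3% and 14.9% rose. In PHIL mice 54.8% of all members and 52.2% of all genes had an unadjusted p under 0.05 by limma at 7dpi. Tpm1 encodes alpha-tropomyosin, which wraps actin and blocks myosin until calcium binds troponin. Tpm1 levels in Rag1-/- mice were 11.36 and 11.26 naive, 10.80, 10.83 and 10.93 at 2dpi, and 12.12, 11.95 and 11.94 at 7dpi. Tpm1 levels in WT mice were 9.37 and 9.39 naive, 9.36, 9.25 and 9.32 at 2dpi, and 10.25, 10.53 and 10.02 at 7dpi. Tpm1 levels in PHIL mice were 9.61 and 9.79 naive, 9.32, 9.31 and 9.22 at 2dpi, and 10.16, 9.90 and 9.83 at 7dpi. In each strain all 7dpi arrays lay above both naive arrays and all 2dpi arrays lay below them. Tpm1 rose at 7dpi in Rag1-/- mice (0.69 ± 0.12 SE, adjusted p = 0.00473) and in WT mice (0.89 ± 0.14 SE, adjusted p = 0.000207), and the PHIL change was 0.26 ± 0.14 SE, adjusted p = 0.146. From 2dpi to 7dpi it rose in all 3 strains, by 1.15, 0.96 and 0.68 in Rag1-/-, WT and PHIL mice (adjusted p = 0.000304, 5.31e-05 and 0.000796). The call in PHIL mice was lost without 7dpi replicate 1 (change 0.58, under the fold threshold, adjusted p = 0.00497). Tpm1 was read by a single probe.

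Tpm2 encodes beta-tropomyosin, the partner of alpha-tropomyosin in many fibres. Tpm2 levels in Rag1-/- mice were 10.88 and 10.95 naive, 9.99, 9.65 and 10.77 at 2dpi, and 9.60, 9.02 and 10.21 at 7dpi. Tpm2 levels in WT mice were 9.75 and 10.02 naive, 8.92, 8.65 and 8.52 at 2dpi, and 9.37, 8.97 and 9.13 at 7dpi. Tpm2 levels in PHIL mice were 9.86 and 9.88 naive, 8.87, 8.68 and 8.90 at 2dpi, and 9.15, 9.94 and 8.92 at 7dpi. All infected arrays lay below both naive arrays in Rag1-/- and WT mice, and in PHIL mice all did except 7dpi replicate 2. Tpm2 fell at 2dpi in WT (-1.19 ± 0.23 SE, adjusted p = 0.00129) and PHIL mice (-1.05 ± 0.23 SE, adjusted p = 0.00398), and at 7dpi in WT (-0.72 ± 0.23 SE, adjusted p = 0.0199) and Rag1-/- mice (-1.31 ± 0.39 SE, adjusted p = 0.0391). The Rag1-/- call was lost without naive replicate 1 or 2, 2dpi replicate 1, or 7dpi replicate 1 or 2 (adjusted p 0.0553 to 0.133), and the WT call at 7dpi without naive replicate 2 or 7dpi replicate 2 (adjusted p 0.0671 to 0.143). The 3 probes of Tpm2 disagreed, with changes at 7dpi in Rag1-/- mice from -1.31 to 0.07 and at 2dpi in WT mice from -1.19 to -0.05, and its brightest probe was at the top of the scale in Rag1-/- mice. With the probe of highest mean level all 4 calls were lost, with changes of -0.05 at 2dpi and -0.0086 at 7dpi in WT mice, -0.08 at 2dpi in PHIL mice and 0.07 at 7dpi in Rag1-/- mice (adjusted p from 0.498 to 0.944). The WT call at 7dpi was also lost under median scaling (-0.33, adjusted p = 0.262), and the Rag1-/- call with no detection filter and with trended and robust eBayes (adjusted p = 0.0597 and 0.0565).

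Lmod2, a leiomodin that nucleates and lengthens thin filaments, had the largest fall of any member in Rag1-/- mice. Lmod2 levels in Rag1-/- mice were 9.66 and 9.43 naive, 9.23, 9.38 and 9.28 at 2dpi, and 7.42, 7.59 and 8.11 at 7dpi. The 7dpi arrays lay at least 1 log2 unit below every other array, and all 2dpi arrays lay a little below both naive arrays. Lmod2 fell at 7dpi (-1.84 ± 0.20 SE, adjusted p = 0.000589), and the call held when each array was left out in turn.

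Troponin T binds the troponin complex to tropomyosin, and Tnnt1 and Tnnt3 are its slow and fast forms. Tnnt1 levels in Rag1-/- mice were 16.07 and 16.04 naive, 16.03, 16.05 and 16.05 at 2dpi, and 15.90, 15.66 and 15.98 at 7dpi. The naive arrays among these sat at the top of the scale. Tnnt1 levels in WT mice were 14.81 and 14.98 naive, 14.72, 14.98 and 15.05 at 2dpi, and 14.44, 14.61 and 14.63 at 7dpi. Tnnt1 levels in PHIL mice were 14.73 and 14.91 naive, 14.79, 14.78 and 14.83 at 2dpi, and 14.46, 14.66 and 14.53 at 7dpi. The 7dpi arrays lay below both naive arrays in WT and PHIL mice, with changes of -0.33 (adjusted p = 0.0359) and -0.27 (adjusted p = 0.0765) that were under the fold threshold. Tnnt3 levels in Rag1-/- mice were 15.30 and 15.38 naive, 15.38, 15.34 and 15.37 at 2dpi, and 14.99, 15.17 and 15.09 at 7dpi. Tnnt3 levels in WT mice were 14.27 and 14.27 naive, 14.37, 14.42 and 14.53 at 2dpi, and 13.93, 14.34 and 14.39 at 7dpi. Tnnt3 levels in PHIL mice were 14.38 and 14.34 naive, 14.27, 14.19 and 14.25 at 2dpi, and 13.98, 14.03 and 14.11 at 7dpi. Fast troponin T was not called in any strain at 7dpi, with changes of -0.26, -0.05 and -0.32 in Rag1-/-, WT and PHIL mice. Acta1, Tnnc2 and Tnni2, measured in WT and PHIL mice, where no naive group lay wholly at the top of the scale, had changes between -0.13 and 0.20 against naive at both times in those strains, and none was called. Acta1 read within 10% of the highest probe on 3 of 3 WT arrays at 7dpi, so that its change there is limited in the same way.

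Among the thick filament and M-band genes, Mybpc1 and Myom1 fell in Rag1-/- mice, Mybpc1 fell in PHIL mice, and none was called in WT mice. Mybpc1 and Mybpc2 encode the slow and fast forms of myosin-binding protein C, which holds thick filaments in register. Mybpc1 levels in Rag1-/- mice were 8.25 and 8.87 naive, 8.84, 7.67 and 7.98 at 2dpi, and 7.20, 7.15 and 7.71 at 7dpi. Mybpc1 levels in WT mice were 7.19 and 7.18 naive, 6.89, 7.03 and 7.10 at 2dpi, and 6.45, 6.47 and 6.89 at 7dpi. Mybpc1 levels in PHIL mice were 7.10 and 7.39 naive, 6.94, 6.86 and 6.58 at 2dpi, and 6.44, 6.43 and 6.32 at 7dpi. All 7dpi arrays lay below both naive arrays in WT and PHIL mice and in Rag1-/- mice. Mybpc1 fell at 7dpi in Rag1-/- (-1.20 ± 0.35 SE, adjusted p = 0.037) and PHIL mice (-0.84 ± 0.15 SE, adjusted p = 0.000536), and the WT change of -0.58 (adjusted p = 0.00623) was just under the fold threshold. The Rag1-/- call was lost without naive replicate 1 or 2, 2dpi replicate 3, or 7dpi replicate 1 or 2 (adjusted p 0.052 to 0.195). The same call was lost under median scaling, with no detection filter and with the replicate block (adjusted p = 0.0561, 0.0571 and 0.0765). The PHIL call was lost under median scaling in place of quantile normalisation (0.06, adjusted p = 0.798), and the change was -0.13 with normexp, with no background correction, with the authors' normalised values and with the probe of highest mean level (adjusted p from 0.429 to 0.479). Its 3 probes gave -0.84 to -0.13 in PHIL mice.

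The fast form was called in no strain. Mybpc2 levels in Rag1-/- mice were 14.44 and 14.53 naive, 14.26, 14.10 and 14.31 at 2dpi, and 13.78, 13.93 and 14.15 at 7dpi. Mybpc2 levels in WT mice were 12.92 and 12.71 naive, 13.03, 13.003 and 12.90 at 2dpi, and 12.72, 12.32 and 12.37 at 7dpi. Mybpc2 levels in PHIL mice were 12.68 and 12.64 naive, 12.64, 12.58 and 12.64 at 2dpi, and 11.83, 12.56 and 11.99 at 7dpi. The 7dpi arrays lay below both naive arrays in Rag1-/- and PHIL mice and overlapped them in WT mice. The changes at 7dpi were -0.53, -0.35 and -0.53 (adjusted p = 0.029, 0.124 and 0.0254), all under the fold threshold.

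Myom1, or myomesin, crosslinks thick filaments at the M-band. Myom1 levels in Rag1-/- mice were 13.32 and 13.31 naive, 12.74, 12.86 and 13.39 at 2dpi, and 12.52, 11.98 and 12.68 at 7dpi. Myom1 levels in WT mice were 11.92 and 12.04 naive, 11.79, 11.72 and 11.81 at 2dpi, and 11.52, 11.54 and 11.72 at 7dpi. Myom1 levels in PHIL mice were 12.03 and 12.08 naive, 11.71, 11.87 and 11.77 at 2dpi, and 11.44, 11.70 and 11.58 at 7dpi. In all 3 strains the 7dpi arrays lay below both naive arrays. Myom1 fell in Rag1-/- mice at 7dpi (-0.92 ± 0.25 SE, adjusted p = 0.0289), a call lost without either naive array or without 7dpi replicate 1 or 2 (adjusted p 0.056 to 0.107), and its changes in WT and PHIL mice were -0.39 and -0.48 (adjusted p = 0.00935 and 0.00257). Its partner in the pair, Myom2, was detected on no array. Ttn, the molecular spring of the sarcomere, had changes between -0.15 and -0.02 against naive in WT and PHIL mice and was not called.

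The Z-disc group held the most members, and 7 of 11 fell at 7dpi in Rag1-/- mice, against 2 of 11 in WT and 3 of 11 in PHIL mice. Of all genes 14.9%, 11.8% and 11.6% fell at 7dpi in those strains. The 2 WT falls were of Synm and of Ldb3, whose tested probe was detected on 0 of 2 naive and 1 of 3 7dpi arrays there. Synm encodes synemin, an intermediate filament protein that ties the Z-disc to its neighbours and to the membrane. Synm levels in Rag1-/- mice were 13.77 and 14.14 naive, 13.90, 12.89 and 13.01 at 2dpi, and 12.60, 12.76 and 12.67 at 7dpi. Synm levels in WT mice were 9.89 and 9.61 naive, 9.35, 9.08 and 9.34 at 2dpi, and 8.70, 8.67 and 8.50 at 7dpi. Synm levels in PHIL mice were 9.33 and 9.26 naive, 8.95, 9.04 and 8.80 at 2dpi, and 8.38, 8.61 and 8.14 at 7dpi. Every 7dpi array lay below every naive and 2dpi array in each strain. Synm fell at 7dpi in Rag1-/- (-1.28 ± 0.29 SE, adjusted p = 0.013), WT (-1.13 ± 0.14 SE, adjusted p = 4.07e-05) and PHIL mice (-0.92 ± 0.14 SE, adjusted p = 0.000239), and from 2dpi to 7dpi in WT mice (-0.63, adjusted p = 0.0018). The Rag1-/- call was lost without naive replicate 2 (adjusted p = 0.0812), and the WT call from 2dpi to 7dpi was lost on the fold threshold without 2dpi replicate 1 or 3 or 7dpi replicate 3 (changes -0.59 to -0.57). Of its 2 probes that were detected, the one tested in Rag1-/- mice gave 7dpi changes of -1.28, -0.57 and -0.62 in Rag1-/-, WT and PHIL mice, and the other -1.40, -1.13 and -0.92. The first of these, which has the higher mean level, took the WT call at 7dpi under the fold threshold, and under median scaling the PHIL call was lost (-0.40, adjusted p = 0.0529). The WT call from 2dpi to 7dpi was also lost on the fold threshold with normexp, no background correction, median scaling and the authors' normalised values (-0.57 to -0.54).

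Myot, or myotilin, crosslinks actin at the Z-disc. Myot levels in Rag1-/- mice were 8.52 and 8.83 naive, 8.37, 8.29 and 8.62 at 2dpi, and 7.57, 7.45 and 7.49 at 7dpi. Myot levels in WT mice were 11.98 and 12.15 naive, 11.72, 11.73 and 11.86 at 2dpi, and 11.57, 11.59 and 11.78 at 7dpi. Myot levels in PHIL mice were 12.32 and 12.29 naive, 11.76, 11.78 and 11.65 at 2dpi, and 11.43, 11.63 and 11.48 at 7dpi. The infected arrays lay below both naive arrays in WT and PHIL mice at both times, and the 7dpi arrays did so in Rag1-/- mice. Myot fell at 7dpi in Rag1-/- (-1.17 ± 0.15 SE, adjusted p = 0.00123) and PHIL mice (-0.79 ± 0.11 SE, adjusted p = 6.71e-05), and both calls held when each array was left out in turn. Under median scaling the PHIL change was -0.50, under the fold threshold. The WT change of -0.42 (adjusted p = 0.00578) and the PHIL change at 2dpi of -0.58 (adjusted p = 0.00136) were under the fold threshold.

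Tcap and Actn2 were lowest at 2dpi in WT and PHIL mice and nearer to naive at 7dpi. Tcap, or telethonin, caps the end of titin in the Z-disc. Tcap levels in Rag1-/- mice were 15.63 and 15.86 naive, 15.19, 15.29 and 15.64 at 2dpi, and 14.35, 14.99 and 15.06 at 7dpi. Tcap levels in WT mice were 14.76 and 14.90 naive, 14.06, 13.90 and 13.95 at 2dpi, and 14.52, 14.54 and 14.71 at 7dpi. Tcap levels in PHIL mice were 14.82 and 14.72 naive, 13.93, 13.82 and 14.20 at 2dpi, and 14.56, 14.82 and 14.59 at 7dpi. The 2dpi arrays lay below all naive and 7dpi arrays in WT and PHIL mice, and in Rag1-/- mice the 7dpi arrays were the lowest. Tcap fell at 2dpi in WT (-0.86 ± 0.13 SE, adjusted p = 0.000167) and PHIL mice (-0.79 ± 0.13 SE, adjusted p = 0.000446), then rose from 2dpi to 7dpi in both, by 0.62 and 0.67 (adjusted p = 0.000779 and 0.000411). In Rag1-/- mice it fell at 7dpi (-0.95 ± 0.24 SE, adjusted p = 0.0209), a call lost without either naive array (adjusted p 0.055 to 0.108). The WT rise was lost on the fold threshold without 2dpi replicate 2 or 7dpi replicate 3 (changes 0.56 to 0.59), under median scaling (0.48), with all 24 arrays normalised together (0.58) and with the authors' normalised values (0.57), which also ended the PHIL call (0.59, just under the threshold).

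Alpha-actinin crosslinks actin in the Z-disc, and Actn3 is the form confined to fast fibres. Actn2 levels in Rag1-/- mice were 15.48 and 15.84 naive, 15.53, 15.43 and 15.63 at 2dpi, and 15.16, 14.82 and 15.40 at 7dpi. Actn2 levels in WT mice were 14.24 and 14.28 naive, 13.80, 13.54 and 13.48 at 2dpi, and 14.07, 13.97 and 14.06 at 7dpi. Actn2 levels in PHIL mice were 14.37 and 14.38 naive, 13.82, 13.72 and 13.63 at 2dpi, and 14.01, 14.57 and 14.01 at 7dpi. The 2dpi arrays lay below all naive and 7dpi arrays in WT and PHIL mice. Actn2 fell at 2dpi in WT (-0.66 ± 0.15 SE, adjusted p = 0.00399) and PHIL mice (-0.65 ± 0.15 SE, adjusted p = 0.00592), and the Rag1-/- change at 7dpi was -0.53 ± 0.19 SE, adjusted p = 0.0749. Under median scaling the 2dpi changes were -0.53 and -0.57, under the fold threshold. Actn3 levels in Rag1-/- mice were 11.44 and 11.86 naive, 12.01, 10.61 and 12.000 at 2dpi, and 9.79, 10.91 and 10.34 at 7dpi. Actn3 levels in WT mice were 11.59 and 11.21 naive, 11.77, 11.34 and 11.31 at 2dpi, and 11.22, 10.66 and 10.67 at 7dpi. Actn3 levels in PHIL mice were 10.90 and 10.32 naive, 11.07, 10.81 and 11.09 at 2dpi, and 10.41, 11.14 and 9.82 at 7dpi. Arrays of 1 group differed by up to more than 1 log2 unit in Actn3. Its change of -1.30 ± 0.47 SE, adjusted p = 0.072 in Rag1-/- mice at 7dpi was among the larger ones by size and did not pass the test.

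Pdlim3, an alpha-actinin-binding LIM protein, was the 1 member that rose at 2dpi. Pdlim3 levels in Rag1-/- mice were 13.15 and 13.15 naive, 13.93, 13.58 and 14.02 at 2dpi, and 12.32, 12.44 and 12.73 at 7dpi. Pdlim3 levels in WT mice were 11.80 and 11.85 naive, 12.40, 12.46 and 12.23 at 2dpi, and 11.49, 11.47 and 11.40 at 7dpi. Pdlim3 levels in PHIL mice were 11.78 and 11.74 naive, 12.05, 12.13 and 11.86 at 2dpi, and 11.35, 11.92 and 11.22 at 7dpi. The 2dpi arrays lay above both naive arrays in each strain, and the 7dpi arrays lay below both naive arrays in Rag1-/- and WT mice. Pdlim3 rose at 2dpi in Rag1-/- mice (0.69 ± 0.18 SE, adjusted p = 0.0215), with changes of 0.54 (adjusted p = 0.0189) in WT and 0.25 (adjusted p = 0.268) in PHIL mice. It then fell from 2dpi to 7dpi in Rag1-/- (-1.35, adjusted p = 0.000767) and WT mice (-0.91, adjusted p = 0.000326) and was lower than naive at 7dpi in Rag1-/- mice (-0.65 ± 0.18 SE, adjusted p = 0.0272). The rise was lost when p-values were adjusted within the single comparison, and without naive replicate 1 or 2 or 2dpi replicate 1 or 3 (adjusted p 0.0528 to 0.0889), and the fall from naive without naive replicate 1 or 2 or 7dpi replicate 1 or 2 (adjusted p 0.0684 to 0.104). The fall from naive was also lost with no detection filter (adjusted p = 0.0525). With the second probe, of higher mean level, both calls were lost, at 0.39 and -0.55.

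Myoz1 and Myoz2 encode calsarcins, which tether the phosphatase calcineurin to the Z-disc in fast and slow fibres. Myoz1 levels in Rag1-/- mice were 13.28 and 13.36 naive, 13.01, 12.99 and 13.17 at 2dpi, and 12.07, 12.63 and 12.53 at 7dpi. Myoz1 levels in WT mice were 11.83 and 11.69 naive, 11.84, 11.22 and 11.14 at 2dpi, and 11.21, 11.20 and 11.32 at 7dpi. Myoz1 levels in PHIL mice were 11.62 and 11.35 naive, 10.91, 11.08 and 11.14 at 2dpi, and 10.67, 11.15 and 10.81 at 7dpi. In each strain the 7dpi arrays lay below both naive arrays. Myoz1 fell at 7dpi in Rag1-/- (-0.91 ± 0.18 SE, adjusted p = 0.00738) and PHIL mice (-0.61 ± 0.19 SE, adjusted p = 0.0195), the latter lost without naive replicate 1 or 7dpi replicate 1 or 3 (adjusted p 0.0528 to 0.156), under median scaling (-0.27, adjusted p = 0.322), and on the fold threshold with no background correction and the replicate block (-0.59 in both). Myoz2 levels in Rag1-/- mice were 13.47 and 13.58 naive, 13.39, 13.64 and 13.57 at 2dpi, and 12.70, 12.93 and 13.16 at 7dpi. Myoz2 levels in WT mice were 12.75 and 12.84 naive, 12.90, 12.72 and 12.92 at 2dpi, and 12.26, 12.62 and 12.38 at 7dpi. Myoz2 levels in PHIL mice were 12.89 and 12.88 naive, 12.89, 12.92 and 12.98 at 2dpi, and 12.21, 12.51 and 12.17 at 7dpi. The 2dpi arrays overlapped the naive ones or lay close to them, and the 7dpi arrays lay below both naive arrays in each strain. Myoz2 fell in Rag1-/- mice at 7dpi (-0.60 ± 0.16 SE, adjusted p = 0.0275), a call lost without naive replicate 1 or 2 or 7dpi replicate 1 or 2 (adjusted p 0.0611 to 0.129), and from 2dpi to 7dpi in PHIL mice (-0.63, adjusted p = 0.000678), a call lost on the fold threshold without 7dpi replicate 3 (change -0.57) and with detection of Eif2s3y as a term (change -0.52, adjusted p = 0.00447) and under median scaling (-0.53). The Rag1-/- call at 7dpi, close to the fold threshold, was also lost with no background correction (-0.58), all 24 arrays normalised together (-0.59), the authors' normalised values (-0.57) and no detection filter (adjusted p = 0.0559).

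Ldb3 encodes a Z-disc protein that binds alpha-actinin. Ldb3 levels in Rag1-/- mice were 11.65 and 12.34 naive, 12.27, 11.34 and 12.22 at 2dpi, and 10.77, 10.996 and 11.40 at 7dpi. The 7dpi arrays lay below both naive arrays, and the change was -0.94 ± 0.34 SE, adjusted p = 0.0712. On the WT and PHIL arrays its tested probe was detected on 0 of 2 naive, 0 of 3 2dpi and 1 of 3 7dpi arrays of each strain, so that no change is given, although the test called it lower in WT mice at both times and it is 1 of the 6 falls counted there. Its other probe gave -0.64 at 2dpi and -0.41 at 7dpi in WT mice, and -0.75 and -0.29 in PHIL mice. Sgca, a sarcoglycan of the membrane complex around dystrophin, fell at 7dpi in Rag1-/- mice (-0.75 ± 0.23 SE, adjusted p = 0.04), a call lost without naive replicate 2, 2dpi replicate 1 or 2, or 7dpi replicate 1 or 2 (adjusted p 0.0533 to 0.222), with no detection filter or with only the groups compared in the fit (adjusted p = 0.0692 and 0.0627), and its changes in WT and PHIL mice were -0.49 and -0.42 (adjusted p = 0.014 and 0.0338). Des, the main intermediate filament of muscle, had changes between -0.06 and 0.31 against naive over the 3 strains and was called in none.

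**Figure D3:**
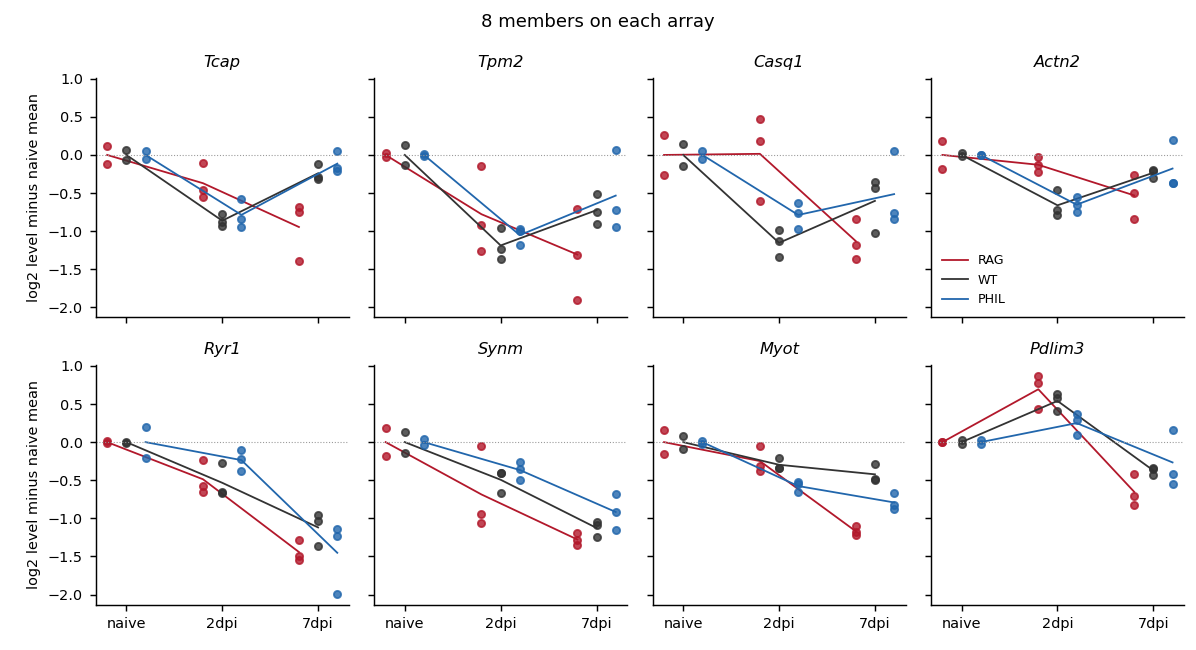
Log2 level of 8 members on each array minus the mean of the naive arrays of the same strain (vertical axis) at naive, 2dpi and 7dpi (horizontal axis), with 1 point per mouse and lines through the group means, in red for Rag1-/- (RAG in the key), dark grey for WT and blue for PHIL. Tcap, Tpm2, Casq1 and Actn2 were lowest at 2dpi in WT and PHIL mice, while Ryr1, Synm and Myot were lowest at 7dpi in each strain and Pdlim3 was highest at 2dpi.

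In excitation-contraction coupling 5 of 7 genes tested fell in Rag1-/- mice at 7dpi, and 2 of 7 (Ryr1 and Jph1) fell in WT and in PHIL mice. The 7 include Atp2a1 and Pvalb, which read at the top of the scale and have no Rag1-/- change given. Of all genes 14.9%, 11.8% and 11.6% fell at 7dpi in Rag1-/-, WT and PHIL mice. Ryr1 is the calcium release channel of the sarcoplasmic reticulum. Ryr1 levels in Rag1-/- mice were 10.36 and 10.33 naive, 10.11, 9.77 and 9.69 at 2dpi, and 8.85, 8.80 and 9.06 at 7dpi. Ryr1 levels in WT mice were 9.15 and 9.16 naive, 8.49, 8.49 and 8.88 at 2dpi, and 7.79, 8.19 and 8.11 at 7dpi. Ryr1 levels in PHIL mice were 8.66 and 9.07 naive, 8.49, 8.64 and 8.75 at 2dpi, and 7.63, 6.88 and 7.73 at 7dpi. All 7dpi arrays lay below all naive and 2dpi arrays of the same strain, with PHIL 7dpi replicate 2 the lowest of them. Ryr1 fell at 7dpi in Rag1-/- (-1.44 ± 0.16 SE, adjusted p = 0.000607), WT (-1.12 ± 0.22 SE, adjusted p = 0.00126) and PHIL mice (-1.45 ± 0.22 SE, adjusted p = 0.000202), and these 3 calls held when each array was left out in turn. From 2dpi to 7dpi it fell in Rag1-/- (-0.95, adjusted p = 0.00238) and PHIL mice (-1.22, adjusted p = 0.000351). Its 4 probes differed in size, from -1.44 to -0.88 in Rag1-/- mice, -1.12 to -0.41 in WT mice and -1.45 to -0.12 in PHIL mice at 7dpi. With the probe of highest mean level the calls in WT (-0.52, under the fold threshold) and PHIL mice (-0.12, adjusted p = 0.588) at 7dpi were lost, as was the Rag1-/- call from 2dpi to 7dpi (-0.56, adjusted p = 0.0973), and the PHIL change from 2dpi to 7dpi was 0.40 (adjusted p = 0.0547).

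Both calsequestrin genes were measured. Casq1 is the fast form and Casq2 the slow and cardiac form of this calcium store protein. Casq1 levels in Rag1-/- mice were 10.67 and 11.21 naive, 11.12, 10.33 and 11.41 at 2dpi, and 9.58, 9.75 and 10.09 at 7dpi. Casq1 levels in WT mice were 9.85 and 10.14 naive, 9.01, 8.87 and 8.65 at 2dpi, and 9.57, 8.98 and 9.64 at 7dpi. Casq1 levels in PHIL mice were 9.99 and 9.89 naive, 9.32, 8.97 and 9.18 at 2dpi, and 9.19, 9.996 and 9.11 at 7dpi. In WT mice every infected array lay below both naive arrays, in PHIL mice all did except 7dpi replicate 2, and in Rag1-/- mice the 7dpi arrays lay below both naive arrays while the 2dpi arrays overlapped them. Casq1 fell at 2dpi in WT (-1.15 ± 0.25 SE, adjusted p = 0.00238) and PHIL mice (-0.79 ± 0.25 SE, adjusted p = 0.0259) and at 7dpi in Rag1-/- mice (-1.13 ± 0.32 SE, adjusted p = 0.033). The PHIL call was lost without either naive array or 2dpi replicate 2 or 3 (adjusted p 0.0508 to 0.123), and the Rag1-/- call without either naive array or 7dpi replicate 1 or 2 (adjusted p 0.0514 to 0.179). The PHIL call was also lost under median scaling (-0.57, adjusted p = 0.0857) and with the replicate block (adjusted p = 0.0531), and the Rag1-/- call under median scaling and with no detection filter (adjusted p = 0.0516 in both). Casq2 levels in Rag1-/- mice were 11.69 and 11.79 naive, 11.84, 12.01 and 11.93 at 2dpi, and 10.83, 11.01 and 11.06 at 7dpi. Casq2 levels in WT mice were 10.69 and 10.78 naive, 10.51, 10.65 and 10.66 at 2dpi, and 10.19, 10.33 and 10.24 at 7dpi. Casq2 levels in PHIL mice were 10.65 and 10.91 naive, 10.76, 10.71 and 10.49 at 2dpi, and 10.25, 10.52 and 10.001 at 7dpi. For Casq2 the 7dpi arrays lay below both naive arrays in each strain, and the 2dpi arrays were near the naive ones or above them. Casq2 fell at 7dpi in Rag1-/- mice (-0.78 ± 0.13 SE, adjusted p = 0.00358), and its changes of -0.48 in WT and -0.53 in PHIL mice (adjusted p = 0.0137 and 0.00923) were under the fold threshold.

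Jph1, a junctophilin, holds the transverse tubule and the sarcoplasmic reticulum together. Jph1 levels in Rag1-/- mice were 9.28 and 9.39 naive, 9.74, 8.90 and 9.11 at 2dpi, and 7.27, 8.02 and 8.45 at 7dpi. Jph1 levels in WT mice were 8.13 and 8.53 naive, 8.001, 7.75 and 7.72 at 2dpi, and 7.95, 7.52 and 7.61 at 7dpi. Jph1 levels in PHIL mice were 8.44 and 8.18 naive, 7.41, 7.45 and 7.16 at 2dpi, and 7.62, 8.06 and 7.45 at 7dpi. All infected arrays lay below both naive arrays in WT and PHIL mice, and in Rag1-/- mice the 7dpi arrays did. Jph1 fell at 7dpi in Rag1-/- (-1.43 ± 0.35 SE, adjusted p = 0.0191), WT (-0.63 ± 0.19 SE, adjusted p = 0.0155) and PHIL mice (-0.60 ± 0.19 SE, adjusted p = 0.0224) and at 2dpi in PHIL mice (-0.96 ± 0.19 SE, adjusted p = 0.00217). The 7dpi calls were lost without either naive array in Rag1-/- mice (adjusted p 0.0695 to 0.0853), without naive replicate 2 or 7dpi replicate 2 in WT mice (0.0561 to 0.174), and without naive replicate 1 or 7dpi replicate 1 or 3 in PHIL mice (0.0614 to 0.167). Under median scaling the 7dpi changes of Jph1 were -0.08 in WT and -0.02 in PHIL mice (adjusted p = 0.767 and 0.939). Both calls were also lost on the fold threshold with normexp, with no background correction, with the authors' normalised values and with the replicate block (-0.56 to -0.47 in WT and -0.52 to -0.44 in PHIL mice), and the PHIL call with only the groups compared in the fit or with detection of Eif2s3y as a term (adjusted p = 0.0553 and 0.0648).

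Srl encodes sarcalumenin, a calcium-binding protein of the sarcoplasmic reticulum. Srl levels in Rag1-/- mice were 10.36 and 10.93 naive, 10.90, 10.10 and 10.84 at 2dpi, and 9.27, 9.71 and 9.64 at 7dpi. Srl levels in WT mice were 9.17 and 9.19 naive, 8.84, 8.67 and 8.60 at 2dpi, and 8.50, 8.60 and 8.80 at 7dpi. Srl levels in PHIL mice were 9.42 and 9.28 naive, 8.76, 8.73 and 8.06 at 2dpi, and 8.55, 9.04 and 8.71 at 7dpi. All infected arrays lay below both naive arrays in WT and PHIL mice, and the 7dpi arrays did in Rag1-/- mice. Srl fell at 2dpi in PHIL mice (-0.83 ± 0.19 SE, adjusted p = 0.00559), lost without naive replicate 1 (adjusted p = 0.0501) and under median scaling (-0.587, just under the fold threshold), and at 7dpi in Rag1-/- mice (-1.11 ± 0.28 SE, adjusted p = 0.022), lost without naive replicate 2 or 7dpi replicate 1 (adjusted p 0.0675 to 0.136). Atp2a1 and Pvalb, measured in WT and PHIL mice, had changes against naive of -0.09 to 0.10 and -0.54 to -0.04 and were not called.

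Of the energy enzymes, Ampd1 fell and Ckm was not called. Ampd1, AMP deaminase, recycles adenine nucleotides during contraction. Ampd1 levels in Rag1-/- mice were 15.04 and 15.27 naive, 14.73, 14.58 and 14.65 at 2dpi, and 14.03, 14.11 and 14.25 at 7dpi. Ampd1 levels in WT mice were 13.09 and 12.99 naive, 12.44, 12.10 and 12.08 at 2dpi, and 12.37, 12.12 and 12.35 at 7dpi. Ampd1 levels in PHIL mice were 13.07 and 13.04 naive, 12.28, 12.29 and 12.03 at 2dpi, and 12.01, 12.55 and 11.90 at 7dpi. Every infected array lay below both naive arrays in each strain. Ampd1 fell at 7dpi in Rag1-/- (-1.03 ± 0.13 SE, adjusted p = 0.00124), WT (-0.76 ± 0.18 SE, adjusted p = 0.00325) and PHIL mice (-0.90 ± 0.18 SE, adjusted p = 0.00113), and at 2dpi in WT (-0.83 ± 0.18 SE, adjusted p = 0.0022) and PHIL mice (-0.86 ± 0.18 SE, adjusted p = 0.00256). These calls held when each array was left out in turn, and the probes of Ampd1 gave -1.03 and -1.03, -0.76 and -0.68, and -0.90 and -0.87 at 7dpi in the 3 strains. Ckm, the muscle creatine kinase, had changes at 7dpi of -0.39, -0.35 and -0.31 in Rag1-/-, WT and PHIL mice (adjusted p = 0.0789, 0.0607 and 0.0937), and 1 of 2 naive Rag1-/- arrays read within 10% of the highest probe.

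**Figure D4:**
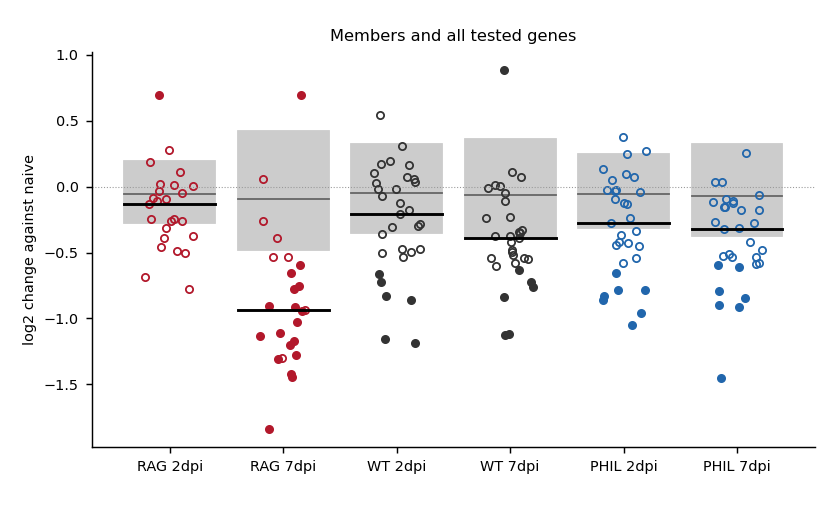
Change against naive on the log2 scale (vertical axis) of each member tested, by strain and time, filled where called and open where not, with a black line at the median of the points shown. Grey boxes span the middle 50% of all genes tested with their median as a thin line, and the 7 Rag1-/- members at the top of the scale are left out, which gives a median of -0.94 at 7dpi. Ldb3 is among the WT and PHIL points.

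Between 2dpi and 7dpi, 11 members fell and 1 rose in Rag1-/- mice (9.02% and 13.9% of all genes), 2 fell and 2 rose in WT mice (8.05% and 10.6%), and 2 fell and 2 rose in PHIL mice (9.57% and 10.7%). The rising pair in WT and PHIL mice was Tcap and Tpm1 in both. Pdlim3 and Synm fell in WT mice and Myoz2 and Ryr1 in PHIL mice. Without 7dpi replicate 1 of the Rag1-/- mice 6 fell, without PHIL 7dpi replicate 2 or 3 6 and 1 fell, and without 2dpi replicate 3 of the PHIL mice 4 fell. In WT mice 1 fell without 2dpi replicate 3 or 7dpi replicate 3 and 1 rose without 2dpi replicate 2 or 7dpi replicate 3, and 1 rose in PHIL mice without 7dpi replicate 1. The 2dpi to 7dpi comparison shares its arrays with the comparisons against naive.

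PHIL and WT mice were compared directly, since the arrays of both were normalised together, to ask whether the absence of eosinophils went with other sarcomere gene levels. By limma 0 of 31 members differed between PHIL and WT mice in naive muscle, at 2dpi or at 7dpi. Of all genes 0%, 0% and 0.486% did. An unadjusted p under 0.05 was found for 3, 4 and 4 members. They made 9.68%, 12.9% and 12.9% of the members, beside 8.23%, 9.49% and 14.8% of all genes. The member with the smallest adjusted p at 7dpi was Ryr1, lower in PHIL mice by 0.62 (95% interval -1.05 to -0.19, adjusted p = 0.156). The 4 probes of Ryr1 ran from -0.62, the one tested, to 0.14 in this comparison. Over the 31 members the PHIL minus WT difference at 7dpi ran from -0.62 in Ryr1 to 0.25 in Ldb3, the probe of which was mostly below detection, and the median half-width of the 95% intervals was 0.28. The change from naive to 7dpi was not called different between PHIL and WT mice for any member (0 of 31, and 0% of all genes). In that comparison 3 members had an unadjusted p under 0.05 by limma (9.68%, beside 9.66% of all genes). Tpm1 had the widest gap apart from Ldb3 (PHIL minus WT -0.63, 95% interval -1.05 to -0.21, adjusted p = 0.289). At 2dpi the responses were not called different for any member either (0.0122% of all genes), with differences from -0.46 to 0.37. There 0 members had an unadjusted p under 0.05 by limma, beside 6.97% of all genes. With detection of Eif2s3y as a term 0 members were called in any of these 5 comparisons.

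The responses of Rag1-/- and WT mice were compared in a fit of all 24 arrays, normalised together. By limma 4 and 5 of 32 members had an unadjusted p under 0.05 at 2dpi and 7dpi. They made 12.5% and 15.6% of the members, beside 22.9% and 17.5% of all genes. With adjusted p and the fold threshold 0 of 32 members differed at 2dpi and 0 at 7dpi (5.2% and 1.74% of all genes). The counts at 2dpi and 7dpi were 1 and 4 with the authors' normalised values, 1 and 3 with no background correction and 1 and 2 under median scaling, and at 7dpi 2 members differed with each set normalised alone, 1 with normexp and 1 with the probe of highest mean level. At 7dpi the Rag1-/- change was the more negative for 27 of 32 members, with a median difference of -0.26. The median half-width of the 95% intervals was 0.51. The 32 include the 7 at the top of the scale. They also include Lmod2 and Myot, whose probes tested here did not pass the detection filter on the WT and PHIL arrays. Myot differed most by adjusted p at 7dpi (Rag1-/- minus WT -0.84, 95% interval -1.36 to -0.31, adjusted p = 0.0908), and Tcap by -0.81 (95% interval -1.33 to -0.30). The 2 probes of Myot gave -0.84 and -0.66. The probe tested here, at -0.84, did not pass the detection filter on the WT and PHIL arrays, and the other did. At 2dpi Casq1 differed most, with the Rag1-/- change higher by 1.20 (95% interval 0.33 to 2.08, adjusted p = 0.0919). Without Rag1-/- 2dpi replicate 2 1 member was called at 2dpi, and without Rag1-/- 7dpi replicate 3 1 member was called at 7dpi. With detection of Eif2s3y as a term 0 members were called at 2dpi or 7dpi. Strain cannot be told apart here from the signal range of the arrays or from the mix of male and female mice, which both differed as given above. Nor can it be told apart from the separate experiments that the paper labels for the Rag1-/- and the WT and PHIL arrays.

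Other genes of the same structures, from a list of 67 written by role, were tested where detected (47 in each set). At 7dpi 23 fell and 4 rose in Rag1-/- mice (48.9% and 8.51%, beside 14.9% and 17.6% of all genes). In WT mice 6 fell and 2 rose (12.8% and 4.26%, beside 11.8% and 16.3%), so that the share lower was near that of all genes. In PHIL mice 10 fell and 0 rose (21.3% lower, beside 11.6% and 14.9%). At 2dpi 1 fell and 2 rose in Rag1-/- mice (2.13% and 4.26%, beside 3.05% and 6.8%), 5 fell and 8 rose in WT mice (10.6% and 17%, beside 10.3% and 13.1%) and 4 fell and 4 rose in PHIL mice (8.51% each, beside 7.94% and 10.6%), none far from the shares of all genes. In Rag1-/- mice the largest called fall of each role at 7dpi was of Nrap (-1.56 ± 0.23 SE, adjusted p = 0.00199), a scaffold of growing myofibrils, Myh4 (-1.68 ± 0.26 SE, adjusted p = 0.00252), the IIb myosin heavy chain, Synpo2 (-1.58 ± 0.41 SE, adjusted p = 0.0229), an actin-binding protein of the Z-disc, and Ak1 (-0.88 ± 0.14 SE, adjusted p = 0.00316), adenylate kinase. Clcn1, the muscle chloride channel, was called lower but detected on 0 of 3 arrays at 7dpi, so its size is not given. Fkbp1a, the protein that stabilises the ryanodine receptor, rose (0.84 ± 0.16 SE, adjusted p = 0.00582), while Asph and Pdlim5 were called higher from naive arrays on which neither was detected.

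Taking again the largest called fall of each role, those in WT mice at 7dpi were of Myh7 (-0.997 ± 0.16 SE, adjusted p = 0.000223), the slow myosin heavy chain, Synpo2 (-0.99 ± 0.19 SE, adjusted p = 0.000824) and Jsrp1 (-0.83 ± 0.18 SE, adjusted p = 0.00187), a junctional protein of the sarcoplasmic reticulum, and Asph, a gene that also encodes the junctional protein junctin, rose (0.81 ± 0.19 SE, adjusted p = 0.00401). In PHIL mice, by role, they were of Tnni1 (-1.03 ± 0.18 SE, adjusted p = 0.000561), slow troponin I, Myh1 (-1.20 ± 0.28 SE, adjusted p = 0.00357), the IIx myosin heavy chain, Csrp3 (-1.42 ± 0.42 SE, adjusted p = 0.0144), the muscle LIM protein, Cacna2d1 (-0.99 ± 0.16 SE, adjusted p = 0.000267), a subunit of the voltage-gated calcium channel, and Ak1 (-0.79 ± 0.18 SE, adjusted p = 0.00306). At 2dpi Cacng1, the gamma subunit of the muscle calcium channel, rose in Rag1-/- (1.49 ± 0.25 SE, adjusted p = 0.00403), WT (1.54 ± 0.15 SE, adjusted p = 3.69e-06) and PHIL mice (1.95 ± 0.15 SE, adjusted p = 4.6e-07), and Xirp1, an actin-binding protein known from repairing fibres, rose in WT (1.44 ± 0.15 SE, adjusted p = 1.16e-05) and PHIL mice (1.25 ± 0.15 SE, adjusted p = 4.69e-05). These 2dpi genes were named after their values were seen.

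Markers of other cells moved in the same arrays as the members. In bulk tissue, fewer cells of a type and less RNA per cell cannot be told apart. The summed linear level of 8 macrophage markers (of 12 listed, with Itgam and Ccr2 not detected) ran from 8037.96 to 9988.98 in naive Rag1-/- mice, 17960.8 to 31774 at 2dpi and 30889 to 43905 at 7dpi, and 6 and 7 of the 8 rose at 2dpi and 7dpi. In WT mice the sum was 1638.38 to 1872.59 naive, 4974.44 to 5906.17 at 2dpi and 5895.31 to 7818.47 at 7dpi, with 7 and 8 of 8 higher, and in PHIL mice 2033.87 to 2300.85, 5908.35 to 6112.28 and 6739.25 to 8471.56, with 7 and 6 higher. The summed level of the 8 adult muscle genes outside the list went from 218664 to 224907 in naive Rag1-/- mice to 180926 to 195304 at 7dpi, from 114183 to 114190 to 99263.1 to 106964 in WT mice, and from 112269 to 115381 to 92153.9 to 107629 in PHIL mice. Of those 8 adult muscle genes 2 fell and 0 rose at 7dpi in each of the Rag1-/-, WT and PHIL strains. The part of the marked cell types in the changes of the members was not tested.

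Other lists gave mixed counts. Of 7 tested fibroblast markers, 3 rose and 2 fell in Rag1-/- mice, 3 rose in WT mice and 1 rose and 1 fell in PHIL mice at 7dpi. Of 5 tested T and B cell markers, 4 rose at 7dpi in both WT and PHIL mice, and 4 and 3 of 5 mesothelial markers rose at 2dpi in WT and PHIL mice and 0 of 5 in Rag1-/- mice. Of the adipocyte markers 0 of 5 were called in Rag1-/- mice and 1 of 3 fell in WT mice at 7dpi.

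How many members fell in WT and PHIL mice depended on the scaling between arrays. Median raw signal rose from 106.3 to 113.2 in naive WT mice to 121.2 to 131.5 at 7dpi, and from 111 to 112.6 to 126.5 to 131.9 in PHIL mice. Quantile normalisation and scaling to a common median both bring the arrays to the same median. The median probe of these arrays was not a detected one, since 8847 to 10627 of 25697 probes were detected per array. Before normalisation 8 of 31 members had a lower mean signal at 7dpi than naive in WT mice and 8 of 31 in PHIL mice, against 27 of 32 in Rag1-/- mice. Scaling to a common median moved the median change of all genes at 7dpi by 0.44 in WT and 0.48 in PHIL mice, and at 2dpi by 0.36 and 0.25. Relative to the median of all genes, the median of the members at 7dpi was -0.32 in WT and -0.25 in PHIL mice by quantile normalisation, and -0.62 and -0.58 by median scaling. All genes called lower and higher at 7dpi numbered 969 and 1341 in WT and 956 and 1225 in PHIL mice by the former, and 90 and 2886, and 74 and 2913, by the latter. Among the members 4 fell and 1 rose in WT and 2 fell and 1 rose in PHIL mice at 7dpi under median scaling, and 19 fell and 1 rose in Rag1-/- mice, where the shift was 0.09.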

How the data were processed

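Total RNA of whole diaphragms was hybridised to Illumina MouseRef-8 v2.0 BeadChips, with 1 array per mouse, and which arrays shared a BeadChip was not given in the sources used here. The authors deposited the mean bead signal intensity of 25697 probes on 24 arrays, neither background-subtracted nor normalised, with a detection p-value per probe from GenomeStudio 1.8 (per the submitters' processing notes). The authors also deposited normalised intensity values of the same arrays, used here as an alternative only. Genes were named through the platform annotation, which named 23978 probes and left 1719 unnamed.

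Background was estimated with neqc (limma 3.58.1, R 4.3.3, offset 16), which infers it from the detection p-values, and the corrected signals were quantile-normalised, separately for the 8 Rag1-/- arrays and the 16 WT and PHIL arrays, and for all 24 arrays together only to compare the Rag1-/- and WT responses. A probe was kept where its detection p was under 0.01 on 2 or more arrays of its set, and the probe of highest interquartile range stood for each gene. Group means were fitted with lmFit and eBayes over all arrays of the set (5, 10 and 15 residual degrees of freedom for the Rag1-/-, WT and PHIL, and joint fits). P-values were adjusted by the Benjamini-Hochberg method, over the 3 Rag1-/- comparisons together and within each other comparison. On simulated data made from the real means, the fits were tested for the recovery of known changes.

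Members and lists were chosen with earlier results of these data known. All 35 genes were accounted for by role, and values per array were given for the called members of largest change in each role at 7dpi, all members called at 2dpi or called higher, Myot, Synm and 7 related gene pairs. Replicate arrays of a group correlated at 0.9913 to 0.9953 and 0 pairs were identical. Nothing in the labels says more of the mice than strain and time, so p-values measure the spread between these mice, and the number of arrays limits the precision. Alternatives covered background correction, normalisation, detection filter, probe choice, samples fitted, variance model, array weights, replicate block, thresholds, p adjustment and leaving out each array.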

Additional observations from a re-analysis of the deposited data

How the results depend on the processing

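Of 66 called results of single members, 1827 values were computed under the processing alternatives, of which 1633 kept their direction and call, 191 kept the direction and lost the call, and 3 reversed. The values include leaving out each array of the set in turn, also arrays outside the groups compared. They also include the setting with no fold threshold, which cannot lose a call, so the 1633 overstate how firm the calls are. The reversals were Tpm2 at 7dpi in Rag1-/- mice (0.070 with the probe of highest mean level), Mybpc1 at 7dpi in PHIL mice (0.061 under median scaling) and Ryr1 from 2dpi to 7dpi in PHIL mice (0.40 with the probe of highest mean level); the cause was not tested.

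Counts of members moved as follows, with lower and higher counted apart. At a 2-fold threshold, against naive, 0 rose in Rag1-/- mice at 2dpi, 10 fell and 0 rose at 7dpi, 2 fell in WT mice at 2dpi, 2 fell and 0 rose at 7dpi, and 1 fell in PHIL mice at each time, while from 2dpi to 7dpi 5 fell in Rag1-/-, 0 fell and 0 rose in WT, and 1 fell and 0 rose in PHIL mice. With no fold threshold 2 fell in Rag1-/- mice at 2dpi, 1 rose in WT mice at 2dpi, 16 fell in WT mice at 7dpi and 9 from 2dpi to 7dpi, and 11, 13 and 9 fell in PHIL mice in those 3 comparisons. With array weights 13 fell in PHIL mice at 7dpi and 5 from 2dpi to 7dpi. Under median scaling 1 rose in WT mice at 2dpi, 4 fell in PHIL mice at 2dpi, 2 fell and 1 rose at 7dpi, 1 fell and 4 rose from 2dpi to 7dpi, and 1 and 2 members differed between the Rag1-/- and WT responses at 2dpi and 7dpi.

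Without background correction 1 fell in Rag1-/- mice at 2dpi, 4 fell in PHIL mice at 7dpi, and 1 and 3 members differed between the Rag1-/- and WT responses at 2dpi and 7dpi. With the authors' normalised values 1 fell in Rag1-/- mice at 2dpi, 1 rose from 2dpi to 7dpi in WT and 1 in PHIL mice, and 1 and 4 differed between those responses. With no detection filter 11 fell in Rag1-/- mice at 7dpi, and with all arrays normalised together (or apart, for the response comparison) 1 rose in WT mice from 2dpi to 7dpi and 2 responses differed at 7dpi. With the probe of highest mean level 0 rose in Rag1-/- mice at 2dpi, 2 fell in WT mice at 7dpi and 1 response differed at 7dpi, and normexp with offset 50 gave 1 there too. With each comparison adjusted alone 0 rose in Rag1-/- mice at 2dpi. With detection of Eif2s3y as a term, added after seeing the data, 1 fell from 2dpi to 7dpi in PHIL mice.

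All genes called lower and higher also shifted between scalings by over 10 points in other comparisons. At 2dpi they went from 844 and 1076 to 186 and 2349 in WT mice and from 653 and 876 to 189 and 1501 in PHIL mice under median scaling, and in Rag1-/- mice at 7dpi from 1294 and 1524 to 941 and 1607. Without background correction they were 76 and 307 in Rag1-/- mice at 2dpi, against 264 and 589.

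Deviations from the group mean correlated weakly between same-numbered arrays of different groups (r from -0.18 to 0.14 in Rag1-/- mice, 3 of 7 pairs over 0.1, and -0.18 to 0.22 in WT and PHIL mice, 4 of 36). The 2 naive arrays of a strain deviate from their mean as mirror images, so these pairs are not independent. The labels do not say what the numbers mean, and these values cannot decide whether they pair the mice. With the replicate block 1 member fell in Rag1-/- mice at 2dpi and 1 rose in WT mice at 2dpi, and 5 calls were lost, of Mybpc1 at 7dpi in Rag1-/- mice (-1.25, adjusted p = 0.0765), Jph1 at 7dpi in WT (-0.56) and PHIL mice (-0.52), Casq1 at 2dpi in PHIL mice (-0.76, adjusted p = 0.0531) and Myoz1 at 7dpi in PHIL mice (-0.59).

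Leaving out each array in turn, the members lower at 7dpi numbered 6 to 19 in Rag1-/-, 3 to 9 in WT and 5 to 13 in PHIL mice, and at 2dpi 0 to 2, 5 to 7 and 6 to 7. Probes near the top of the scale on the Rag1-/- arrays, and probes near background on the WT and PHIL arrays, limit the size of the changes that could be measured.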
